A study of Mus musculus with 10 samples.

Results

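The secretase genes described here are Adam10 and Adam17 (alpha-secretases), Bace1 (beta-secretase), and Psen2, Ncstn, Aph1a, Aph1b, Aph1c and Psenen (subunits of gamma-secretase). They were taken by symbol from a table of 31510 genes, in which all 9 were found, and all 9 passed the filter on low values (5 or more of the 10 libraries with a normalised count of 10 or more) that left 17556 genes for testing. The gene of presenilin 1 is not analysed here. The libraries came from micro-dissected hippocampi of male APP/PS1 mice (34832-JAX). Both groups carry this strain's transgenes for a mutant amyloid precursor protein and for mutant human presenilin 1, which a prion protein promoter drives in the brain. At 8 months of age, 5 mice received AAV8-Irisin-FLAG in the tail vein, a liver-directed vector for FLAG-tagged irisin, and 5 received AAV8-GFP. Tissue was taken 2 months later. No library came from a mouse without the transgenes or without a vector, so values below compare only these groups.

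Amyloid-beta is cut from the amyloid precursor protein in 2 steps. BACE1 sheds the outer part of the precursor and leaves a stub in the membrane, and gamma-secretase then cuts that stub within the membrane to release amyloid-beta. ADAM10 and ADAM17 cut the precursor inside the amyloid-beta sequence, so this route yields no intact peptide, and in neurons ADAM10 is the main constitutive alpha-secretase. Gamma-secretase is a complex of a presenilin, which holds the active site, nicastrin, an APH1 protein and PEN-2, and it also cuts Notch receptors and many other membrane proteins.

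Across the 10 libraries the normalised counts summed to between 35284320 and 36623030, and 22434 to 23035 genes had a value above 0. Markers of hippocampal and other neurons were all present, with summed levels of 339603 to 358367 normalised counts in AAV8-Irisin-FLAG and 315522 to 385816 in AAV8-GFP mice. None of the marker genes of 7 lists for cell types and neighbouring tissues was at 0 in every library. The summed choroid plexus markers reached 2591 in AAV8-Irisin-FLAG mouse 4, against 907 to 1106 in the other 4 mice of that group and 712 to 968 in AAV8-GFP mice. Red-cell markers summed to 1669 to 3211 in AAV8-Irisin-FLAG and 1586 to 4502 in AAV8-GFP mice; all 5 AAV8-Irisin-FLAG mice lay below the AAV8-GFP mean. All 5 red-cell markers had log2 differences below 0 (median −0.65), 3 of them at an unadjusted p under 0.05 by limma and 0 at an adjusted p under 0.05. Hippocampal Fndc5, the gene of the irisin precursor, averaged 2479 ± 104 normalised counts in AAV8-Irisin-FLAG and 2610 ± 74.0 in AAV8-GFP (SD, n = 5 each). This does not check the labels, because the vector was meant to act in the liver.

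The comparison asks whether irisin made from a liver-directed vector went with altered transcript levels of these enzymes in the hippocampus. No difference passed the test in any of the 9 genes. By limma with Benjamini-Hochberg adjustment over all tested genes, 0 members were higher and 0 lower in AAV8-Irisin-FLAG at an adjusted p under 0.05, where 0% of all tested genes were called. At an unadjusted p under 0.05 there were again 0 members, where 4.49% of tested genes lay, and in 0 members did the mice of the groups separate without overlap, where 0.803% of tested genes did. The median log2 difference of the members, AAV8-Irisin-FLAG minus AAV8-GFP on the log2(normalised count + 1) scale, was 0.0048, against 0.00099 over all tested genes. Single differences ran between −0.11 for Aph1c and 0.098 for Aph1b, with 5 members above 0 and 4 below. Hippocampal tissue was measured in bulk, so fewer cells of a type and less RNA per cell cannot be told apart.

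**Figure D1:**
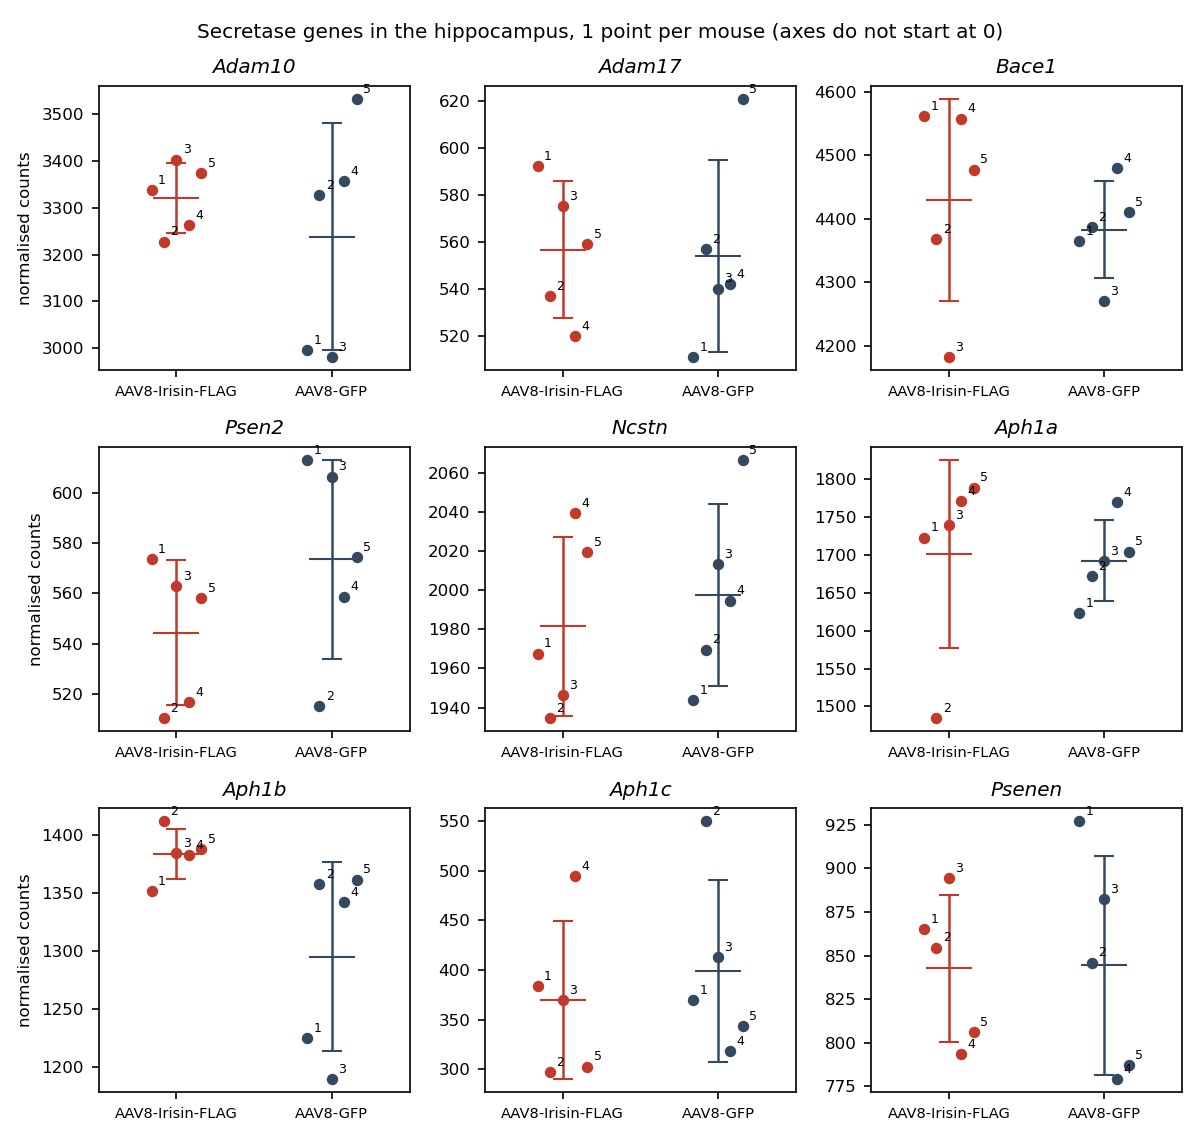
Normalised counts (y axis, starting above 0) of the 9 secretase genes, with 1 point per mouse numbered as in its group, the horizontal bar at the mean and the whiskers at ± 1 SD (n = 5 each). The groups overlap in every panel; Aph1b comes closest to separating, with 4 of 5 AAV8-Irisin-FLAG mice above the highest AAV8-GFP mouse at 1361.

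Adam10 (ENSMUSG00000054693.14, mm10 chromosome 9, 70678997 to 70780229, plus strand) had 3337, 3228, 3403, 3262 and 3374 normalised counts in AAV8-Irisin-FLAG mice 1 to 5. In AAV8-GFP mice 1 to 5 it had 2995, 3326, 2980, 3357 and 3533. All AAV8-Irisin-FLAG mice lay inside the range of the AAV8-GFP mice, whose mice 1 and 3 were low. Means were 3321 ± 74.1 in AAV8-Irisin-FLAG and 3238 ± 242 in AAV8-GFP (SD, n = 5 each). The log2 difference was 0.039 with a standard error of 0.048 (95% interval −0.063 to 0.14, limma, adjusted p = 0.949). As a percentage, the interval runs between a decrease of 4.25% (written −4.25%) and an increase of 10.3%.

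Adam17 (ENSMUSG00000052593.16, chromosome 12, 21323509 to 21373632, minus strand), the protease that also releases tumour necrosis factor from cells, was the lower of the alpha-secretases. It had 592, 537, 575, 520 and 559 normalised counts in AAV8-Irisin-FLAG mice and 511, 557, 540, 542 and 621 in AAV8-GFP mice. The group means were nearly equal, at 557 ± 29.0 in AAV8-Irisin-FLAG and 554 ± 40.9 in AAV8-GFP, and the log2 difference was 0.0081 with a 95% interval of −0.13 to 0.14 (limma, adjusted p = 0.988).

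Bace1 (ENSMUSG00000032086.12, chromosome 9, 45838580 to 45864399, plus strand), the single beta-secretase among the members, had the highest normalised count of the 9. Its values were 4562, 4368, 4182, 4557 and 4477 in AAV8-Irisin-FLAG mice and 4365, 4387, 4270, 4480 and 4410 in AAV8-GFP mice. Here the AAV8-Irisin-FLAG mice were the more scattered, with 2 above and 1 below every AAV8-GFP mouse. Bace1 averaged 4429 ± 159 in AAV8-Irisin-FLAG and 4383 ± 76.1 in AAV8-GFP (SD, n = 5 each). The difference was 1.02%, with a 95% interval of −3.87% to 6.16%, the narrowest of the 9 (limma, adjusted p = 0.967). On the log2 scale it was 0.015, and between 0.0039 without AAV8-Irisin-FLAG mouse 1 and 0.035 without AAV8-Irisin-FLAG mouse 3.

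Psen2 (ENSMUSG00000010609.15, chromosome 1, 180227004 to 180263438, minus strand) encodes presenilin 2, a catalytic subunit that microglia and other cells use beside presenilin 1. It had 574, 510, 563, 517 and 558 normalised counts in AAV8-Irisin-FLAG mice and 613, 515, 606, 559 and 574 in AAV8-GFP mice. In AAV8-Irisin-FLAG 4 of 5 mice lay under the AAV8-GFP mean, yet only 1 lay under the lowest AAV8-GFP mouse. The means of 544 ± 28.8 in AAV8-Irisin-FLAG and 573 ± 39.6 in AAV8-GFP differed by −0.074 on the log2 scale (standard error 0.063, 95% interval −0.21 to 0.060, limma, adjusted p = 0.942).

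Ncstn (ENSMUSG00000003458.12, chromosome 1, 172066013 to 172082795, minus strand) encodes nicastrin, the large glycoprotein that screens substrates by the length of their outer part. It varied least of all members between mice. Its values were 1968, 1934, 1946, 2039 and 2020 in AAV8-Irisin-FLAG mice and 1944, 1970, 2013, 1995 and 2067 in AAV8-GFP mice. Over the 10 mice the highest was 1.07 times the lowest, and the residual SD of 0.033 on the log2 scale lay at percentile 1.83 of all tested genes. The log2 difference was −0.012 with a 95% interval of −0.087 to 0.064 (limma, adjusted p = 0.971).

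Psenen (ENSMUSG00000036835.7, chromosome 7, 30561863 to 30563627, minus strand) encodes PEN-2, the smallest subunit, which completes the assembly of the complex. AAV8-Irisin-FLAG mice had 865, 855, 894, 793 and 806 normalised counts and AAV8-GFP mice 927, 846, 883, 779 and 787, so each group held mice near both ends of the range. Means were 843 ± 42.1 in AAV8-Irisin-FLAG and 844 ± 63.1 in AAV8-GFP, with a log2 difference of −0.0011 and a 95% interval of −0.13 to 0.13 (limma, adjusted p = 0.999).

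APH1 is the scaffold of the complex, and the mouse has 3 genes for it. Aph1a (ENSMUSG00000015750.15, chromosome 3, 95893969 to 95898288, plus strand) is the most widely used in development. It had 1723, 1484, 1739, 1772 and 1789 normalised counts in AAV8-Irisin-FLAG mice and 1623, 1672, 1692, 1770 and 1704 in AAV8-GFP mice. AAV8-Irisin-FLAG mouse 2, at 1484, stood below all the others. The log2 difference was 0.0048 with a 95% interval of −0.11 to 0.12 (limma, adjusted p = 0.993), and without AAV8-Irisin-FLAG mouse 2 it was 0.053.

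Aph1b (ENSMUSG00000032375.15, chromosome 9, 66775202 to 66795490, minus strand) and Aph1c (ENSMUSG00000053040.13, chromosome 9, 66814994 to 66834726, minus strand) lie side by side, and humans have only the single gene APH1B in their place. Their coding sequences in GENCODE M21 were 771 and 774 bases long and identical in 95.9% of the aligned columns, with 29 mismatches, 3 gap columns and an identical run of 341 bases. Of all windows of 100 bases in the Aph1b transcript, 9.37% occurred whole in the Aph1c transcript, so reads from such windows fit both genes. The stretch below is shown because it separates the genes best: among stretches of 60 coding bases within an exon it holds the most mismatches, 11. It covers coding bases 5 to 64 in exon 1 of both genes, on the minus strand of mm10, at chr9:66795302-66795361 for Aph1b and chr9:66834535-66834594 for Aph1c, and capitals mark the bases that differ.
Aph1b: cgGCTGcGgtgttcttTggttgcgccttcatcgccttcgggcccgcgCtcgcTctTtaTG
Aph1c: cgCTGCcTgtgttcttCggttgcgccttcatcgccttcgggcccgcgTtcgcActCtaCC
The sources used here do not say how reads that fit both were counted. Each gene's value is therefore uncertain, and their sum is given beside them.

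Aph1b had 1351, 1412, 1384, 1383 and 1387 normalised counts in AAV8-Irisin-FLAG mice and 1225, 1357, 1189, 1342 and 1361 in AAV8-GFP mice. The AAV8-Irisin-FLAG mice were close together and 4 of the 5 exceeded every AAV8-GFP mouse, while AAV8-GFP mice 1 and 3 were low, as they were for Adam10. Means were 1383 ± 21.5 in AAV8-Irisin-FLAG and 1295 ± 81.7 in AAV8-GFP (SD, n = 5 each). Among the members Aph1b had the smallest p, at a log2 difference of 0.098 (standard error 0.047, 95% interval −0.0037 to 0.20, limma, unadjusted p = 0.0579, adjusted p = 0.942). It ranked 940 of the 17556 tested genes by p.

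Aph1c was the most variable member. It had 384, 297, 370, 494 and 303 normalised counts in AAV8-Irisin-FLAG mice and 370, 550, 413, 318 and 343 in AAV8-GFP mice, and the highest mouse was 1.85 times the lowest. Its residual SD was 0.30 on the log2 scale, at percentile 83.5 of tested genes, where the other 8 members lay at or below percentile 34.0 and the median of all tested genes was 0.12. High values came from 1 mouse of each group, AAV8-Irisin-FLAG mouse 4 and AAV8-GFP mouse 2. AAV8-Irisin-FLAG mouse 4 also had the highest choroid plexus markers, whose part in this value was not tested; AAV8-GFP mouse 2 had a choroid plexus sum of 891, within its group's range. The log2 difference was −0.11 with a 95% interval of −0.44 to 0.22 (limma, adjusted p = 0.956), and without AAV8-GFP mouse 2 it was 0.016.

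Added together, Aph1b and Aph1c had 1735, 1709, 1754, 1877 and 1690 normalised counts in AAV8-Irisin-FLAG mice and 1594, 1907, 1602, 1660 and 1704 in AAV8-GFP mice. The sum varied less between mice than Aph1c alone, with a coefficient of variation of 5.98% against 21.4%, and the groups overlapped. Aph1b alone had 5.46%, and Aph1c made up a mean of 22.2% of the sum. The comparison with Aph1c therefore does not show that adding the genes removed variation. The log2 difference of the sum was 0.052 (standard error 0.052, 95% interval −0.060 to 0.16, limma, adjusted p = 0.943).

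**Figure D2:**
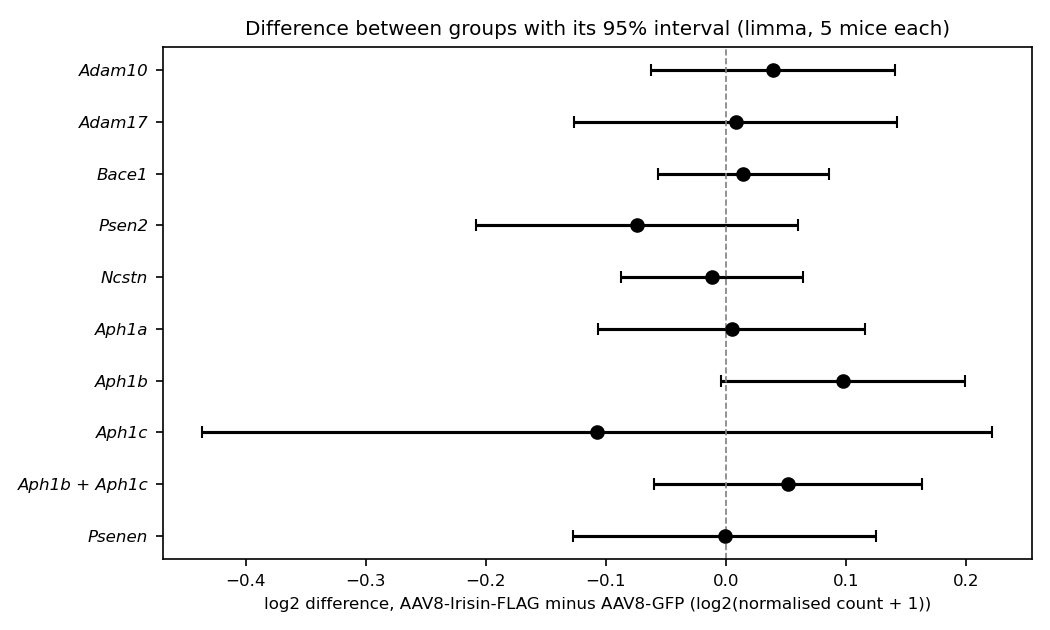
Log2 difference of each secretase gene, and of Aph1b and Aph1c added together, AAV8-Irisin-FLAG minus AAV8-GFP (x axis), with its 95% interval from limma (5 mice each). All 10 intervals contain 0; that of Aph1c is the widest, from −0.44 to 0.22, and that of Bace1 the narrowest.

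Levels of different genes were compared per kilobase of annotated exon. Dividing by the union of a gene's exons, Bace1 was highest at 698 ± 25.1 normalised counts per kilobase in AAV8-Irisin-FLAG and 690.4 ± 11.99 in AAV8-GFP (SD, n = 5 each). Adam10 followed at 676 ± 15.1 per kilobase in AAV8-Irisin-FLAG and 659 ± 49.3 in AAV8-GFP, and Psenen at 661 ± 33.0 in AAV8-Irisin-FLAG and 662 ± 49.5 in AAV8-GFP. These 3 genes overlapped between mice and cannot be ranked. Ncstn formed the next level at 498 ± 11.5 in AAV8-Irisin-FLAG and 503 ± 11.7 in AAV8-GFP. It overlapped Aph1a, at 493 ± 35.998 in AAV8-Irisin-FLAG and 491 ± 15.4 in AAV8-GFP. Aph1b stood at 268 ± 4.16 in AAV8-Irisin-FLAG and 251 ± 15.8 in AAV8-GFP, clear of Aph1a above it and of Psen2 below it in all 10 mice. Psen2, at 126 ± 6.64 in AAV8-Irisin-FLAG and 132 ± 9.13 in AAV8-GFP, was above Adam17 in all 10 mice. Adam17 stood at 77.8 ± 4.06 in AAV8-Irisin-FLAG and 77.5 ± 5.71 in AAV8-GFP, and overlapped Aph1c at 71.0 ± 15.3 in AAV8-Irisin-FLAG and 76.6 ± 17.6 in AAV8-GFP.

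The order depended on the length used for genes whose annotated transcripts differ. Divided by the longest transcript, Psenen (0.708 kilobases, against 1.275 for its union of exons) had a mean of 1191 normalised counts per kilobase over the 10 mice and lay above every other member in all 10. Psen2 then had a mean of 277 and overlapped Aph1b, at 262. Adam17, at 124, no longer overlapped Aph1c, at 73.8. Ncstn, at 660, no longer overlapped Aph1a, at 593, but did overlap Adam10, at 714. Exons of 6 of the 9 members overlap exons on the opposite strand: those of Copa for Ncstn, Car14 for Aph1a, Gm17098 for Aph1c, U2af1l4 and Gm49396 for Psenen, Rnf214, Gm16536 and Gm49338 for Bace1, and Iah1 for Adam17. The sources used here do not say whether counting used strand, so the levels of these 6 may include reads of the partner.

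**Figure D3:**
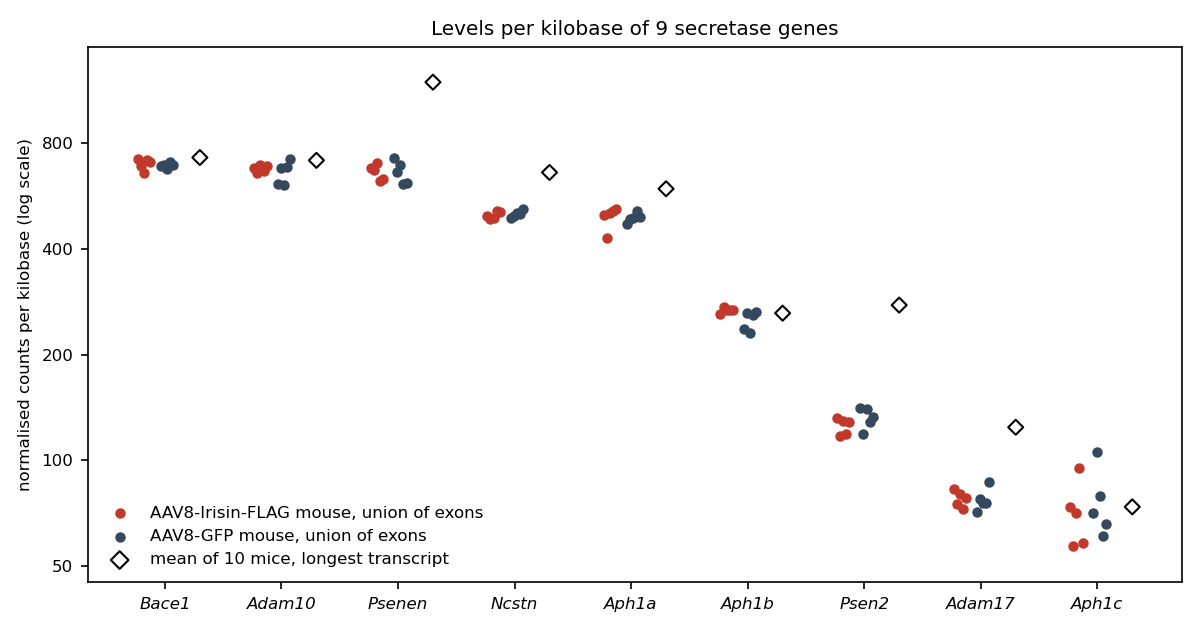
Normalised counts per kilobase (log axis) of the 9 secretase genes in each mouse, divided by the union of annotated exons and sorted by the mean over 10 mice; open diamonds give the mean divided by the longest annotated transcript. By the union of exons Bace1, Adam10 and Psenen share the top level and Adam17 and Aph1c the lowest. The diamonds move Psenen to 1191, Psen2 to 277 and Adam17 to 124, above Aph1c.

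Ratios of members within a mouse need no scaling between libraries. Those per kilobase given here divide by the union of exons. The ratio of Adam10 to Bace1 per kilobase was 0.945, 0.955, 1.05, 0.925 and 0.974 in AAV8-Irisin-FLAG mice and 0.887, 0.980, 0.902, 0.968 and 1.04 in AAV8-GFP mice, so the groups overlapped. Adam10 made up 89.7 ± 0.362% of the summed Adam10 and Adam17 levels per kilobase in AAV8-Irisin-FLAG and 89.5 ± 0.419% in AAV8-GFP. Among the 3 Aph1 genes, Aph1a made up 59.2 ± 1.78% per kilobase in AAV8-Irisin-FLAG and 60.01 ± 1.89% in AAV8-GFP. Aph1b made up 32.3 ± 2.11% in AAV8-Irisin-FLAG and 30.6 ± 1.19% in AAV8-GFP, and Aph1c 8.50 ± 1.52% in AAV8-Irisin-FLAG and 9.35 ± 1.97% in AAV8-GFP. Psen2 was 0.252 ± 0.0150 times Ncstn per kilobase in AAV8-Irisin-FLAG and 0.264 ± 0.0194 times in AAV8-GFP. The size of these ratios and shares depends on the length used. By the longest transcript, the mean over all mice was 277 per kilobase for Psen2 and 660 for Ncstn, against 129 and 501 by the union of exons. For Adam17 it was 124 against 77.7, and for Adam10 714 against 668. The SDs give the spread between mice and do not cover this choice. These ratios are given without a test.

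How members varied together was examined over the 10 mice, on log2 values with each group's mean removed. Of 36 pairs, 6 had a permutation p under 0.05 for Pearson's r and 0 had an adjusted p under 0.05. The smallest adjusted p, 0.0583, was that of Adam10 and Aph1b, whose 2 low mice are described below, and the next was 0.159. The alpha-secretases Adam10 and Adam17 had r = 0.757 (permutation p = 0.0117, adjusted p = 0.159) and rho = 0.709 (permutation p = 0.0264, adjusted p = 0.220), and without AAV8-GFP mice 1 and 3 r was 0.839. Psen2 and Aph1b had r = −0.725 (permutation p = 0.0173, adjusted p = 0.159) and rho = −0.745 (permutation p = 0.0174, adjusted p = 0.220), and r was −0.649 without AAV8-Irisin-FLAG mouse 2 and AAV8-GFP mouse 1. Ncstn and Psenen had r = −0.737 (permutation p = 0.0176, adjusted p = 0.159) and rho = −0.697 (permutation p = 0.0302, adjusted p = 0.220), and r was −0.577 without AAV8-Irisin-FLAG mouse 4 and AAV8-GFP mouse 5. Psenen and Adam10 had r = −0.655 (permutation p = 0.0406, adjusted p = 0.244) and rho = −0.648 (permutation p = 0.0497, adjusted p = 0.278), and r was −0.473 without AAV8-GFP mice 1 and 4. Aph1b and Psenen had r = −0.666 (permutation p = 0.0352, adjusted p = 0.244) and rho = −0.697 (permutation p = 0.0306, adjusted p = 0.220), a relation that rests on AAV8-GFP mice 1 and 3, since r was −0.029 without them. None of these pairs passed the adjustment. For Adam10 and Aph1b, AAV8-GFP mice 1 and 3 stood apart from the other 8 mice on both genes, and among those 8 r was −0.169, so no pooled r is given. In the summed neuronal markers AAV8-GFP mouse 1 was the lowest of the 10 at 315522 and mouse 3 the highest at 385816, and in astrocyte markers likewise at 122619 and 160143; the part of these cell types in the low Adam10 and Aph1b values was not tested. All values share the libraries and their scaling.

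**Figure D4:**
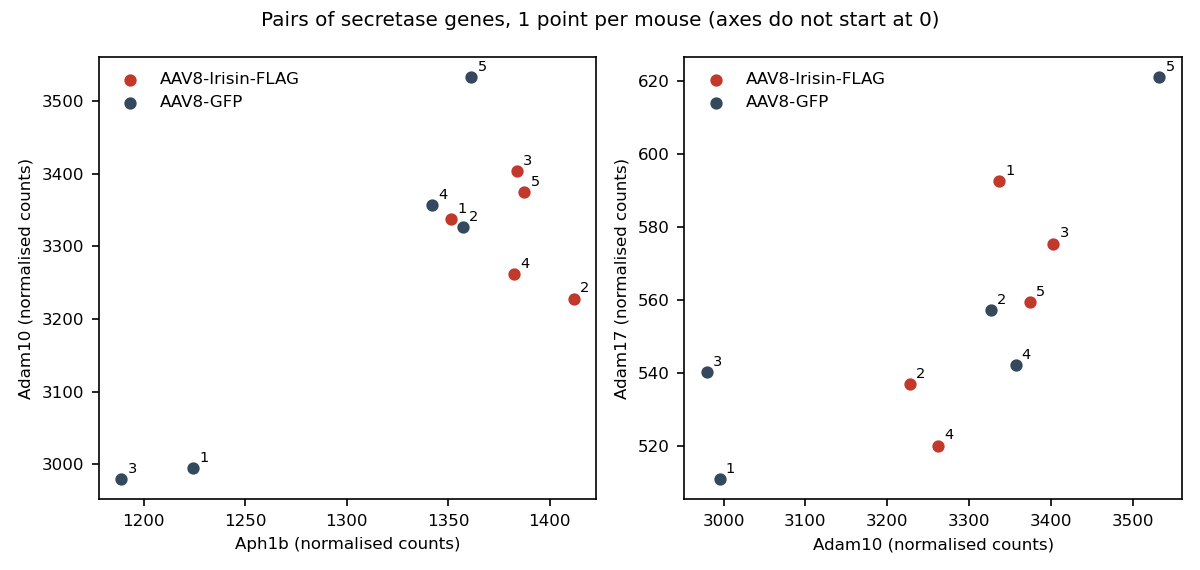
Normalised counts of Adam10 against Aph1b (left) and of Adam17 against Adam10 (right), 1 point per mouse numbered as in its group; the axes do not start at 0. On the left AAV8-GFP mice 1 and 3 lie apart at 1225 and 1189 for Aph1b. On the right the mice with more Adam10 tend to have more Adam17 (r = 0.757 with group means removed). That pair, 1 of 36, did not pass the adjustment (permutation test, adjusted p = 0.159).

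Genes that mature, sort, inhibit or serve as substrates of these enzymes were read from the same fit. Of 105 listed genes 104 were found in the table under the listed symbol and 102 passed the filter. Of these, 0 were higher and 0 lower at an adjusted p under 0.05 by limma, 5 had an unadjusted p under 0.05 (4.49% of all tested genes did), and 1 had groups that did not overlap (0.803% of all tested genes). Each gene named here had an adjusted p of 0.942 or more, so none passed. AAV8-GFP mouse 1 was the lowest of all mice for Adam9, Dlg1, Timp3, Usp8, Nrg1 and Erbb4. It was the highest for Adam15, Gga1, Arrb2, Lrp1 and Hes1, and at neither end for Gsap, Tnfrsf1a and Heyl. Among the secretase genes this mouse was the highest for Psen2 and Psenen, and the lowest for Adam17 and for Aph1b and Aph1c summed. Its summed neuronal, astrocyte, microglial and choroid plexus markers were also the lowest, while those of the other marker lists were not. Differences of the genes in which it was lowest or highest share this mouse and are not counted as separate findings. It was not always alone at that end. Nrg1 was 160 in AAV8-GFP mouse 1, 163 in mouse 4 and 165 in mouse 5, and Dlg1 was 3419 in mouse 1 and 3428 in mouse 3. The cause was not tested.

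The lists are described by the sign of the log2 difference, AAV8-Irisin-FLAG minus AAV8-GFP. Among related proteases, 4 of 9 tested genes had a difference above 0 and 5 below (median −0.0067). Adam9, a metalloprotease that can also shed the precursor, averaged 1927 ± 59.9 normalised counts in AAV8-Irisin-FLAG and 1815 ± 98.7 in AAV8-GFP, and Adam15, a related metalloprotease, averaged 3657 ± 124 in AAV8-Irisin-FLAG and 3834 ± 500.0 in AAV8-GFP. Partners, convertases and inhibitors of ADAM10 and ADAM17 divided into 8 differences above 0 and 9 below (median −0.0080). Dlg1, a scaffold that binds ADAM10 at synapses, averaged 3881 ± 128 in AAV8-Irisin-FLAG and 3621 ± 238 in AAV8-GFP. Timp3, an inhibitor of ADAM17, averaged 2834 ± 148 in AAV8-Irisin-FLAG and 2671 ± 142 in AAV8-GFP. Omitting AAV8-GFP mouse 1 gave log2 differences of 0.082 for Dlg1 (0.10 with all mice) and 0.057 for Timp3 (0.086). The unadjusted p of Dlg1 by limma was 0.0389 with all mice and 0.0793 without that one.

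Genes for sorting and turnover of BACE1 had 9 differences above 0 and 4 below (median 0.0028). Gga1, an adaptor that carries BACE1 between endosomes and the Golgi, averaged 2174 ± 59.6 normalised counts in AAV8-Irisin-FLAG and 2351 ± 216 in AAV8-GFP, and Usp8, which removes ubiquitin from BACE1, averaged 2567 ± 50.5 in AAV8-Irisin-FLAG and 2448 ± 131 in AAV8-GFP. Regulators of gamma-secretase had 5 above 0 and 3 below (median 0.0093). Arrb2, a beta-arrestin that binds APH1, averaged 1620 ± 102 in AAV8-Irisin-FLAG and 1741 ± 140 in AAV8-GFP, and Gsap, the gamma-secretase activating protein, averaged 334 ± 38.8 in AAV8-Irisin-FLAG and 368 ± 33.5 in AAV8-GFP. Log2 differences left after omitting AAV8-GFP mouse 1 were −0.056 for Gga1 (−0.11 with all mice), 0.038 for Usp8 (0.070) and −0.057 for Arrb2 (−0.10). Some other omissions enlarged them. Gga1 reached −0.14 without AAV8-GFP mouse 5, and without AAV8-GFP mouse 2 Usp8 reached 0.088 and Arrb2 −0.13. For Gsap the log2 difference was −0.14 with all mice, −0.095 without AAV8-GFP mouse 3 and −0.21 without AAV8-Irisin-FLAG mouse 4.

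Substrates of BACE1 had 8 differences above 0 and 8 below (median 0.00081). Nrg1, a neuregulin that BACE1 cuts and that is needed for myelination, averaged 216 ± 17.97 normalised counts in AAV8-Irisin-FLAG and 183 ± 34.6 in AAV8-GFP (log2 difference 0.26, unadjusted p = 0.0421, limma). Among substrates of gamma-secretase, of which 8 had differences above 0 and 9 below (median −0.015), Erbb4, the receptor of neuregulins, averaged 2670 ± 279 in AAV8-Irisin-FLAG and 2264 ± 323 in AAV8-GFP (log2 difference 0.24, unadjusted p = 0.0225, limma). Omitting AAV8-GFP mouse 1 gave log2 differences of 0.16 for Erbb4 (unadjusted p = 0.0535, limma) and 0.21 for Nrg1 (unadjusted p = 0.0962, limma). Omitting AAV8-GFP mouse 2 instead gave 0.30 for Erbb4 (unadjusted p = 0.00777, limma) and 0.36 for Nrg1 (unadjusted p = 0.00144, limma), at an adjusted p of 0.794 for both. Oligodendrocyte markers, given beside these neuregulin genes, summed to 110321 to 132139 in AAV8-Irisin-FLAG and 94990 to 127325 in AAV8-GFP mice, and their part was not tested.

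Substrates of ADAM10 and ADAM17 had 6 differences above 0 and 12 below (median −0.019). Tnfrsf1a, the tumour necrosis factor receptor that ADAM17 sheds, had 302, 306, 296, 293 and 294 normalised counts in AAV8-Irisin-FLAG mice and 359, 311, 401, 329 and 365 in AAV8-GFP mice. It was the only tested gene of these lists whose groups did not overlap. Its log2 difference was −0.24 with a standard error of 0.074 (limma, unadjusted p = 0.00636, adjusted p = 0.942). All 5 microglial and all 5 red-cell markers had log2 differences below 0, as did 4 of 5 astrocyte and 3 of 4 endothelial markers. All 5 oligodendrocyte markers and all 4 tested choroid plexus markers lay above 0, and neuronal markers divided into 4 and 4. Microglial sums were 11455 to 14153 in AAV8-Irisin-FLAG and 11291 to 15953 in AAV8-GFP mice. The smallest unadjusted p of a microglial marker was 0.241 (limma). The part of any of these cells in the Tnfrsf1a values was not tested. Lrp1, a lipoprotein receptor and clearance receptor of amyloid-beta, averaged 21856 ± 1121 in AAV8-Irisin-FLAG and 24344 ± 3151 in AAV8-GFP. The log2 difference of Lrp1 was −0.15 (unadjusted p = 0.0459, limma), and −0.072 without AAV8-GFP mouse 1 (unadjusted p = 0.0660, limma). Without AAV8-GFP mouse 2 it was −0.18 (unadjusted p = 0.0211, adjusted p = 0.794, limma).

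Targets of Notch, a substrate of gamma-secretase, and nuclear partners of Notch had 3 differences above 0 and 8 below (median −0.028). At an unadjusted p under 0.05 by limma there were 0 of 11, where 4.49% of all tested genes lay. Heyl averaged 128 ± 16.8 normalised counts in AAV8-Irisin-FLAG and 113 ± 16.5 in AAV8-GFP. Hes1 averaged 375 ± 36.7 in AAV8-Irisin-FLAG and 411 ± 52.0 in AAV8-GFP, a log2 difference of −0.13. That of Hes1 was −0.080 without AAV8-GFP mouse 1 and −0.21 without AAV8-GFP mouse 4. Heyl and Hes1, both transcriptional repressors, thus lay in opposite directions, and the groups overlapped for each.

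**Figure D5:**
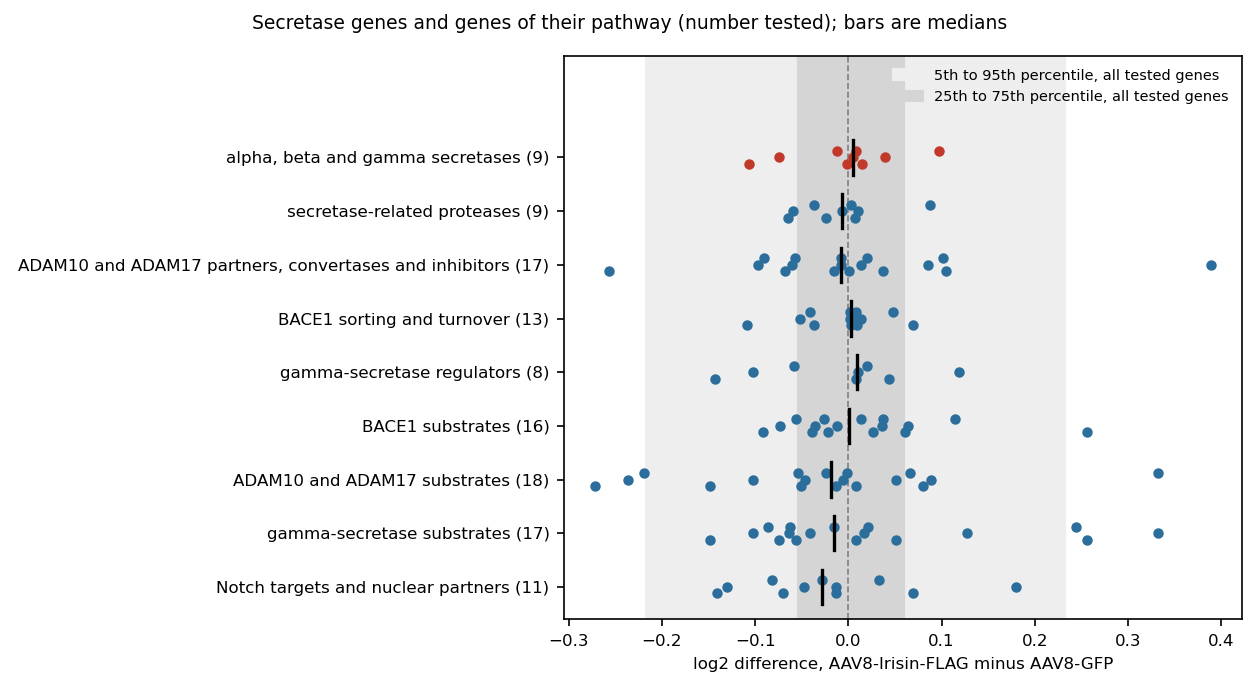
Log2 difference, AAV8-Irisin-FLAG minus AAV8-GFP (x axis), of the 9 secretase genes and of the tested genes of 8 lists of their pathway, with a black bar at each median; shading gives the spread of all 17556 tested genes. Every secretase gene lies between the 5th and the 95th percentile of all tested genes (−0.22 and 0.23), and list medians lie between −0.028 and 0.0093.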

How the data were processed

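Per the labels' protocols, RNA of frozen hippocampus was enriched on oligo(dT) beads and sequenced on Illumina. The submitters' processing notes name bcl2fastq 2.17, DESeq2 and mm10; the sources used here name no aligner, counting tool, strand setting or annotation. The authors' deposited table holds a non-negative signal per gene and library, called DESeq2 normalised counts. A shift common to every gene is removed by such scaling. Low values within 0.1 reads of a whole multiple of the commonest one made up 54.3% to 74.3% per library, so whole reads were not recovered and no count test or counting interval is given.

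Values with at least 10 in at least 5 libraries were tested on log2(value + 1) with limma 3.58.1 in R 4.3.3 (group factor, trended prior, two-sided, Benjamini-Hochberg over 17556 genes, threshold 0.05), after the code had been tested on simulated data. Titles name separate mice. Positions and lengths are from GENCODE M21 on mm10; 97.5% of symbols matched. Correlations used 100000 permutations over all 10 mice, made across the groups after their means were removed, and were adjusted over 36 pairs. Such permutations allow neither for the removed means nor for unequal spread of the groups, so these p-values may be too small. Members and lists were chosen with earlier results of these data known. Besides the members and Fndc5, the text names the 2 tested genes of smallest p of each of 8 lists, except 1 gene that is not reported here. The 19 alternatives covered pseudocount, filter, scaling, weights, prior variance, block and omitted mice.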

Additional observations from a re-analysis of the deposited data

Results flagged for a closer look

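Of 62 group-wise sets of 5 values examined, 3 had a highest or lowest mouse whose gap to the next exceeded 0.71 of the group's range; chance alone gives about 1 in 20 such sets. Aph1a was 1484 normalised counts in AAV8-Irisin-FLAG mouse 2, with the next mouse at 1723. Nrg1 was 243 in AAV8-GFP mouse 2, with the next at 182. Lrp1 was 29858 in AAV8-GFP mouse 1, with the next at 23595.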

How the results depend on the processing

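The counts of called secretase genes and of called pathway genes were 0 under all 19 alternatives. The count over all genes, 0, became 1 without a filter on low values: Gm49383, named after its value was seen, listed at 0 in all AAV8-Irisin-FLAG mice and at 2.66 to 13.9 in AAV8-GFP mice. Of 171 recomputed member differences 151 kept their direction, including all of Psen2, Aph1b, Bace1 and Adam10, and the smallest adjusted p was 0.794. Aph1a was −0.0022 with quantile normalisation, and array quality weights gave −0.015 for Aph1a, 0.028 for Psenen and −0.017 for Adam17; the cause was not tested. Leaving out 1 mouse at a time, differences ranged from −0.014 to 0.053 for Aph1a, −0.029 to 0.033 for Psenen, −0.020 to 0.050 for Adam17, −0.22 to 0.016 for Aph1c, −0.022 to 0.00061 for Ncstn, 0.068 to 0.12 for Aph1b, 0.010 to 0.072 for Adam10, 0.0039 to 0.035 for Bace1, −0.11 to −0.049 for Psen2, 0.027 to 0.096 for Aph1b and Aph1c summed, and −0.10 to 0.0044 for Adam15. Aph1b had an unadjusted p of 0.0381, 0.0495 and 0.0365 without AAV8-GFP mouse 2, 4 or 5, and its lowest difference came without AAV8-GFP mouse 3. With mouse number as a replicate block 0 members were called and Aph1b had an unadjusted p of 0.0682; deviations of same-numbered mice correlated between −0.089 and 0.030, so the numbers are not taken as pairs. Depth per library is unknown, so precision rests on the spread between mice.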
